A study of Danio rerio with 12 samples.

Results

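The genes described here are 9 transcription factors that set and hold the identity of the liver, the gut and the foregut: hnf4a, foxa1, foxa2, foxa3, gata4, gata5, gata6, hhex and cdx1b. They were chosen by name, as known regulators of these organs, and with earlier results of these data known. The question was whether regulators fell as the products of these organs did in larvae without Ercc2/Xpd. Ercc2/Xpd is a helicase subunit of the transcription and DNA repair complex TFIIH. Each name matched 1 gene identifier, so the set holds 9 of the 37541 identifiers listed. RNA-seq was done on whole larvae of the AB strain in 4 groups of 3 libraries: homozygous mutants (ercc2/xpd -/-) and siblings at 7 dpf, and mutants and siblings at 5 dpf. The sibling larvae were wild-type and heterozygous animals mixed, in proportions the labels do not give. Each library was a pool of 30 larvae, no library came from a dissected organ, and the mutants carried 1 CRISPR/Cas9 allele, a short deletion in a late exon. Values are FPKM, reads scaled by gene length and by library.

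Endoderm organs arise in steps under factors that remain in use in the adult organ. FoxA proteins are forkhead factors that bind closed chromatin and open it for others, GATA factors are zinc finger proteins that act with them from the endoderm stage on, and Hnf4a is a nuclear receptor that holds the gene programme of hepatocytes and of the absorptive gut. Hhex is a homeodomain protein needed for the liver and pancreas buds, and Cdx factors are homeodomain proteins that give the gut its intestinal character. Several of them also work outside the digestive organs. The GATA factors are used in the heart, foxa2 in the floor plate of the neural tube, and hhex in endothelium and thyroid, so a value from a whole larva sums over these sites.

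The library sizes recovered from the FPKM steps were 13403615 to 15084280 reads. The share held by the 10 most read genes was 12.4% to 17.0%, and no 2 libraries were identical. The transcript of the mutated gene, listed as ERCC2 (ENSDARG00000021985), stood at 3.57, 2.96 and 3.07 FPKM in mutants and 6.38, 4.26 and 5.06 FPKM in siblings at 7 dpf. At 5 dpf it stood at 3.14, 2.97 and 2.56 FPKM in mutants and 5.23, 3.78 and 3.80 FPKM in siblings. The mutant libraries lay below the sibling libraries at both ages, with a log2 fold change of −0.62 at 7 dpf (limma adjusted p = 0.061) and −0.48 at 5 dpf (adjusted p = 0.20). At 7 dpf it was called lower in 3 alternatives, with the replicate block (adjusted p = 0.027), the block within each age (0.044) and library weights (0.031), and the effect averaged over both ages was −0.55 (adjusted p = 0.016). A short deletion leaves the transcript countable, so this level does not by itself check the labels. Weights estimated from the fit were lowest for sibling replicate 2 at 5 dpf (0.458) and mutant replicate 3 at 7 dpf (0.537).

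None of the 8 factors tested passed the test for a change in ercc2/xpd mutants, which for so few genes is near the share of all genes. Most products on the exocrine pancreas and enterocyte lists passed it as lower at both ages. Of the hepatocyte products, 19 of 26 passed as lower at 7 dpf and 8 of 26 at 5 dpf, where 22 of 26 had a fold change below 0. The difference between the ages was called for 0 of these 26. At 7 dpf 0 of the 8 factors that could be tested passed the test, against 5.05% of all 23648 genes tested. An unadjusted p under 0.05 was reached by 4 of 8, against 4629 of the 23648 genes. All 4 had lower values in mutants (foxa1, foxa2, gata6 and cdx1b). At 5 dpf 0 of 8 passed, against 2.82% of all genes. Here 1 of 8 had an unadjusted p under 0.05 (cdx1b, lower), against 3430 of the 23648 genes. A gene passed at a Benjamini-Hochberg adjusted p under 0.05 by limma on log2(FPKM + 0.5), a scale on which the change of a weakly expressed gene comes out too small. The counts stayed at 0 under all 25 alternative settings at each age, voom on recovered reads included. Not all of these are distinct. Median of ratios scaling nearly repeats the reported fit, and leaving out a library of the other age leaves the fold change as it was. A factor that missed the test is not shown to be unchanged. The lowest 95% interval bound among the 8 factors was −0.90 (log2) at 7 dpf and −0.94 at 5 dpf, both for cdx1b on the log2(FPKM + 0.5) scale. With voom on recovered reads cdx1b reached −0.70 at 7 dpf and −0.84 at 5 dpf, neither called, so the bounds are no limit on a fall of the transcript.

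Beside this, the product lists had larger falls in their medians. These lists were chosen with earlier results of these data known. By staining at an earlier stage than those sequenced, the authors had found foxa3, gata6 and hhex similar in mutants and siblings. They had already reported some genes of the lists, and cdx1b among the factors, as reduced in these mutants. The fall of the lists is thus no independent yardstick for the factors. The median log2 fold change of the 8 factors was −0.27 at 7 dpf and 0.16 at 5 dpf, and that of all genes tested was 0.01 and 0.02. The factor median was −0.15 without mutant replicate 3 and −0.41 without mutant replicate 2 of 7 dpf, and 0.24 without sibling replicate 2 of 5 dpf. Among hepatocyte products, 19 of 26 fell at 7 dpf with a list median of −1.72, and 8 of 26 fell at 5 dpf with a median of −0.50, a value within the range of the single factors that was −0.33 without mutant replicate 3 of 5 dpf. Fabp10a, the fatty acid binding protein of the liver, had 85.7, 69.6 and 73.8 FPKM in mutants against 1057, 1395 and 1376 FPKM in siblings at 7 dpf. All 14 exocrine pancreas products fell at both ages, with medians of −5.07 at 7 dpf and −4.44 at 5 dpf, and over the alternatives 13 to 14 were called at 7 dpf and 12 to 14 at 5 dpf. Trypsin prss1 had 745, 76.1 and 76.5 FPKM in mutants against 7621, 9121 and 9635 FPKM in siblings at 7 dpf. Among enterocyte products 22 of 27 fell at each age, with medians of −2.03 at 7 dpf and −1.68 at 5 dpf, and cyp3a65, a cytochrome P450 of the gut, had 20.4, 13.2 and 8.53 FPKM in mutants against 165, 149 and 148 FPKM in siblings at 7 dpf. The enterocyte count at 5 dpf was 13 without mutant replicate 1 of that age. In whole larvae fewer cells of a type and less RNA per cell cannot be told apart, which holds for products and factors alike. The lists were described by counts and medians, with no test of a list.

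**Figure D1:**
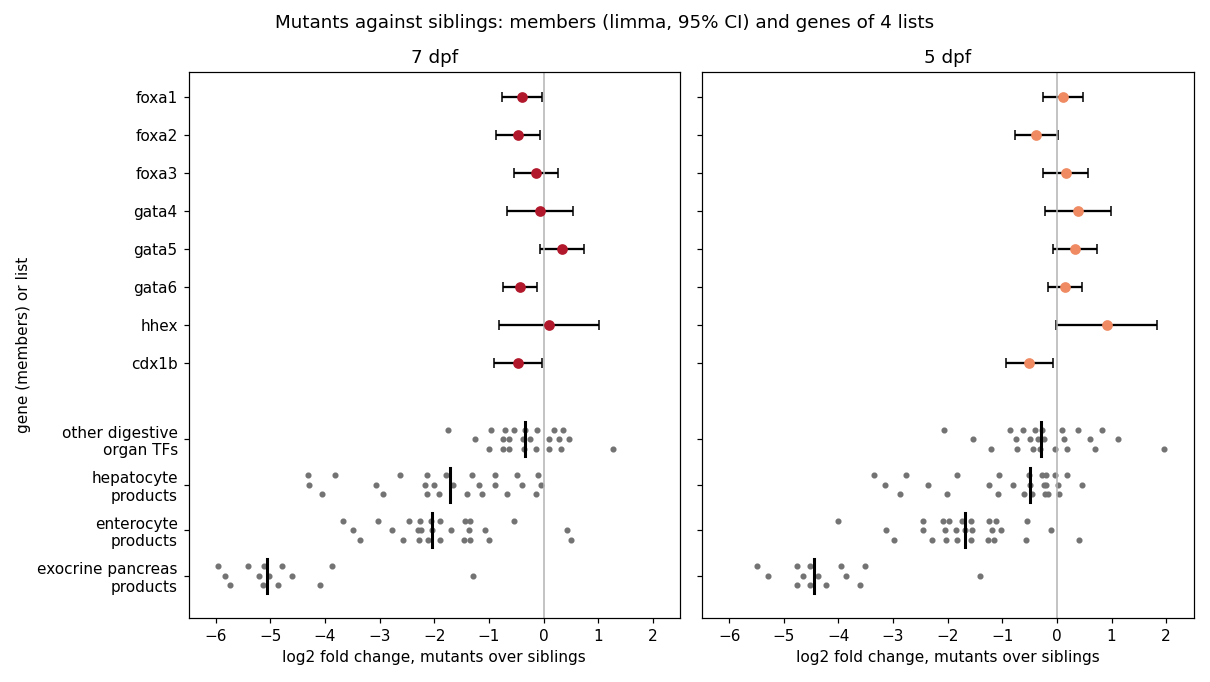
Log2 fold change on log2(FPKM + 0.5), ercc2/xpd mutants over siblings, at 7 dpf (left) and 5 dpf (right). Coloured points with bars are the 8 tested factors with their 95% intervals, and grey points are single genes of the other lists with a black bar at the list median. The factors lie between −0.51 and 0.91, while all 14 exocrine pancreas products lie at −1.295 or lower.

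Hnf4a (ENSDARG00000021494) lies on chromosome 23 of GRCz11 from 25832689 to 25865856 on the plus strand, and it had too few reads to be compared between groups. Its reads, recovered from the FPKM, were 1, 2 and 6 in mutants and 5, 0 and 0 in siblings at 7 dpf. They were 3, 1 and 6 in mutants and 2, 2 and 1 in siblings at 5 dpf. The group sums were thus 9 and 5 reads at 7 dpf and 10 and 5 reads at 5 dpf, and no library reached the 0.5 FPKM of the filter, with a highest value of 0.104 FPKM. A count of 0 allows up to 3 reads, so no fold is given and no statement is made on the direction. Counts of reads and the limit at 0 cover counting error only. In the same sibling libraries at 7 dpf the hepatocyte products summed to 4518 to 5459 FPKM and the enterocyte products to 712 to 872 FPKM, and why so few reads were assigned to hnf4a was not tested.

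Genes next to hnf4a, chosen after their values were seen, had reads in mixed amounts. R3HDML had 0 to 7 reads and TTPAL 0 to 3 reads per library, while FITM2 had 24 to 100 and PKIG 134 to 332. An alternate contig of the same region holds 2 unnamed transcripts with reads at or next to the hnf4a coordinates (25854680 to 25864116 and 25866919 to 25873282), and neither is annotated as hnf4a. The first had 14, 39 and 10 reads in mutants against 9, 15 and 50 in siblings at 7 dpf, and 7, 35 and 12 in mutants against 10, 17 and 13 in siblings at 5 dpf. Groups of the first overlapped at both ages, with a log2 fold change of −0.18 at 7 dpf and 0.06 at 5 dpf, neither called. The second had 34, 23 and 18 reads in mutants against 14, 6 and 16 in siblings at 7 dpf. At 5 dpf it had 14, 19 and 12 reads in mutants against 19, 7 and 61 in siblings. Mutants were higher in every library at 7 dpf, the groups overlapped at 5 dpf, and this transcript did not pass the filter. Whether either holds reads of hnf4a or TTPAL was not tested.

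**Figure D2:**
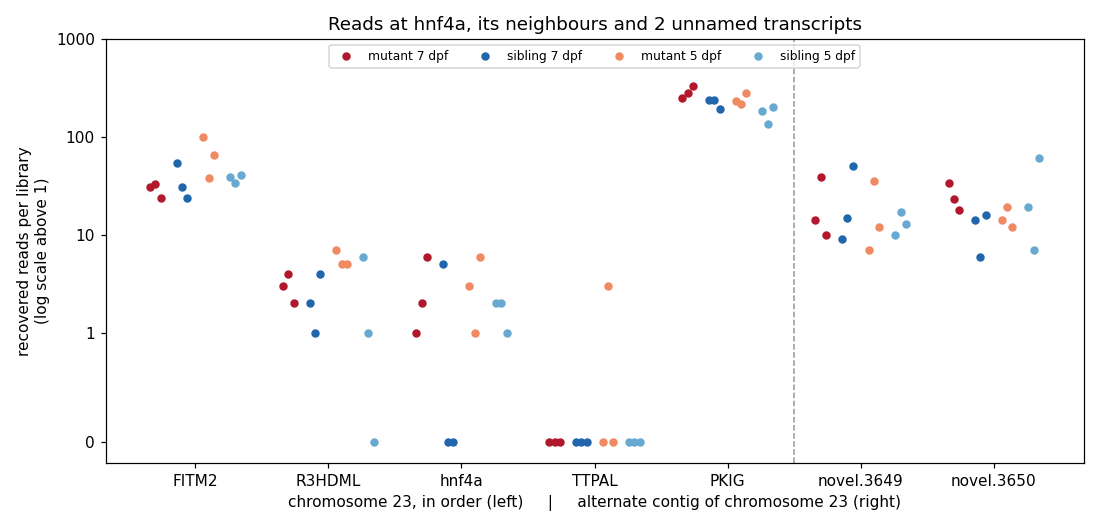
Reads recovered per library (log scale above 1) for hnf4a, its neighbours and 2 unnamed transcripts of the alternate contig, in mutants and siblings at 7 and 5 dpf. Each point is 1 library. Hnf4a stays at 0 to 6 reads in all 12 libraries, and PKIG lies between 134 and 332.

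The levels per length ordered the other factors. That order depends on the gene models, which are 531 bases long for hhex (6 to 33 reads per library) and 5384 for cdx1b (41 to 110 reads). In mutants at 7 dpf foxa3 (5.56 ± 1.06 FPKM, mean ± SD, n = 3), foxa1 (5.00 ± 0.55) and gata6 (4.75 ± 0.37) were highest, each overlapping its neighbour, and gata6 did not overlap gata5 (3.56 ± 0.39) below it. Then came hhex (2.09 ± 1.55), gata4 (1.90 ± 0.45) and foxa2 (1.42 ± 0.26), again overlapping, and cdx1b was lowest (0.716 ± 0.137). In siblings at 7 dpf foxa1 (6.76 ± 1.23), gata6 (6.58 ± 0.38) and foxa3 (6.14 ± 0.98) lay above the rest, and gata5, foxa2, gata4, hhex and cdx1b followed, each overlapping the next, at means of 2.74 to 1.21 FPKM. At 5 dpf gata6 stood alone at the top in both groups, at 7.70 ± 0.29 FPKM in mutants and 6.95 ± 1.31 FPKM in siblings. Below it in mutants lay foxa3 (4.85 ± 0.36), gata5, foxa1, hhex and gata4 (2.34 ± 0.66), each overlapping the next, then foxa2 (0.793 ± 0.0998) and cdx1b (0.573 ± 0.046), each clear of its neighbours. Below gata6 in siblings at 5 dpf lay foxa3 (4.35 ± 0.97), foxa1 and gata5 (3.71 ± 0.76), then gata4, hhex, foxa2 and cdx1b, overlapping one another in turn, at means of 1.68 to 1.03 FPKM.

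**Figure D3:**
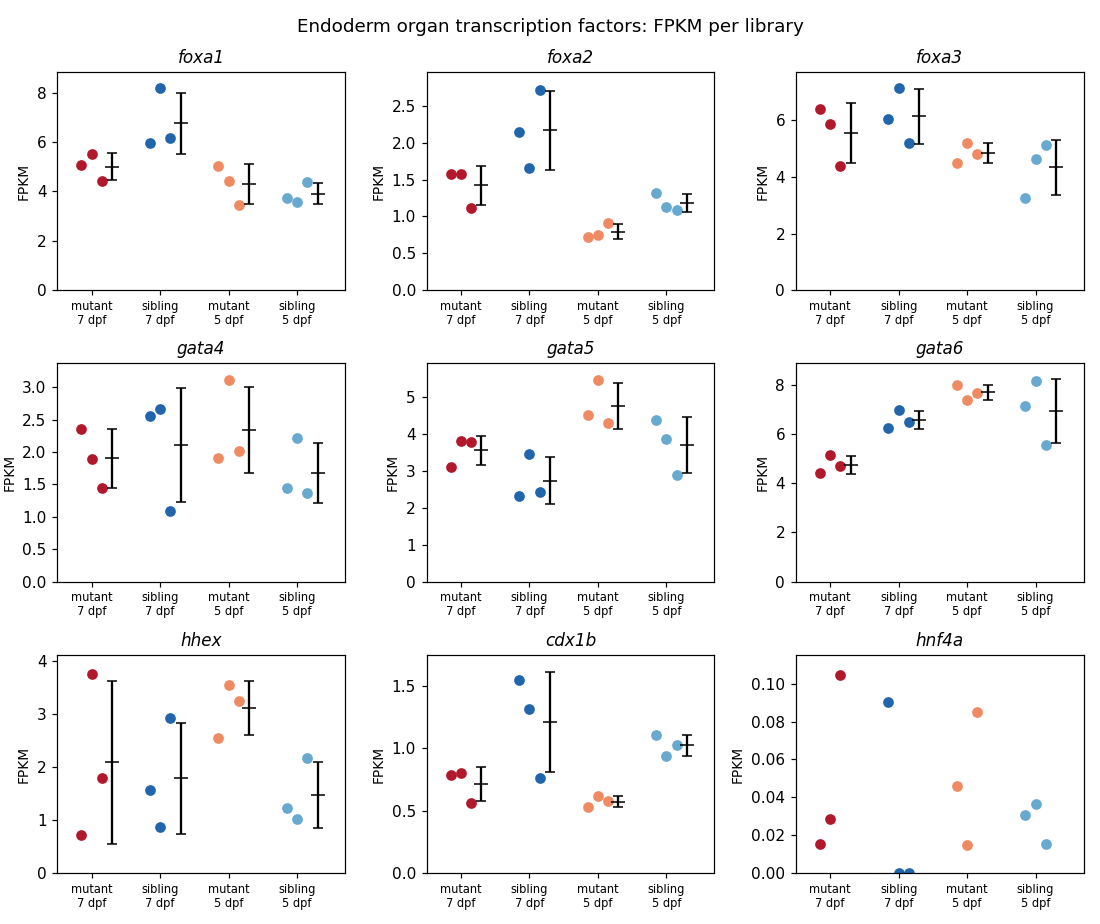
FPKM of the 9 factors by group, in mutants and siblings at 7 dpf and at 5 dpf. Points are libraries and bars the mean ± SD of 3 (no bar for hnf4a). The foxa2 points of mutants lie below those of siblings at both ages, and those of foxa1 and gata6 only at 7 dpf.

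Among the FoxA genes, foxa1 (ENSDARG00000102138, chromosome 17, 10318071 to 10320932, plus strand) had 5.07, 5.51 and 4.42 FPKM in mutants and 5.94, 8.18 and 6.16 FPKM in siblings at 7 dpf. Its values at 5 dpf were 5.04, 4.42 and 3.43 FPKM in mutants and 3.74, 3.57 and 4.38 FPKM in siblings. All mutant libraries were lower at 7 dpf, and the groups overlapped at 5 dpf. The log2 fold change was −0.39 at 7 dpf (95% interval −0.76 to −0.02, limma adjusted p = 0.22) and 0.12 at 5 dpf (−0.25 to 0.48, adjusted p = 0.82).

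Foxa2 (ENSDARG00000003411, chromosome 17, 42565998 to 42568498, minus strand), which is needed for endoderm and floor plate, had 1.58, 1.57 and 1.12 FPKM in mutants and 2.14, 1.65 and 2.72 FPKM in siblings at 7 dpf. In larvae of 5 dpf the values were 0.727, 0.745 and 0.908 FPKM in mutants and 1.32, 1.13 and 1.09 FPKM in siblings. Every mutant library lay below every sibling library of its age, at both ages. This gave a log2 fold change of −0.46 at 7 dpf (−0.86 to −0.06, limma adjusted p = 0.18) and −0.38 at 5 dpf (−0.77 to 0.02, adjusted p = 0.38). These values rest on 20 to 62 reads per library, where counting alone gives an error of 22.4% to 12.7%.

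Foxa3 (ENSDARG00000012788, chromosome 18, 46350574 to 46354269, minus strand), a marker of the zebrafish gut tube, had 6.42, 5.88 and 4.38 FPKM in mutants and 6.07, 7.16 and 5.20 FPKM in siblings at 7 dpf. The 5 dpf values were 4.497, 5.21 and 4.83 FPKM in mutants and 3.26, 4.64 and 5.13 FPKM in siblings. The groups overlapped at both ages. The log2 fold change was −0.14 at 7 dpf (−0.55 to 0.27, limma adjusted p = 0.74) and 0.16 at 5 dpf (−0.25 to 0.57, adjusted p = 0.76). The direction turned at 7 dpf with TPM (0.064) and total reads scaling (0.035) and without mutant replicate 3 (0.010), and at 5 dpf without sibling replicate 1 (−0.012).

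Among the GATA genes, gata4 (ENSDARG00000098952, chromosome 20, 52952116 to 52967878, minus strand) had 2.36, 1.90 and 1.45 FPKM in mutants and 2.56, 2.66 and 1.09 FPKM in siblings at 7 dpf. At the earlier age the values were 1.91, 3.11 and 2.01 FPKM in mutants and 1.44, 2.21 and 1.37 FPKM in siblings. The groups overlapped at both ages, with log2 fold changes of −0.07 (−0.68 to 0.54, limma adjusted p = 0.93) at 7 dpf and 0.38 (−0.23 to 0.99, adjusted p = 0.58) at 5 dpf. The direction at 7 dpf turned with TPM (0.12), with total reads scaling (0.085) and without mutant replicate 3 (0.073), sibling replicate 1 (0.082) or sibling replicate 2 (0.10) of that age. Gata4 had 17 to 60 reads per library.

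Gata5 (ENSDARG00000017821, chromosome 23, 7379728 to 7391028, plus strand), which is needed in zebrafish for heart and endoderm, had 3.11, 3.80 and 3.78 FPKM in mutants and 2.33, 3.46 and 2.42 FPKM in siblings at 7 dpf. Its values at 5 dpf were 4.51, 5.47 and 4.31 FPKM in mutants and 4.38, 3.86 and 2.89 FPKM in siblings. Its mutant mean was the higher one at both ages, with 1 sibling library reaching into the mutant range at each. Its log2 fold change was 0.34 at 7 dpf (−0.06 to 0.74, limma adjusted p = 0.34) and 0.33 at 5 dpf (−0.06 to 0.73, adjusted p = 0.44).

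Gata6 (ENSDARG00000103589, chromosome 2, 4207209 to 4217887, plus strand), used in endoderm and heart, had 4.41, 5.15 and 4.69 FPKM in mutants and 6.24, 6.98 and 6.51 FPKM in siblings at 7 dpf. In larvae of 5 dpf the values were 7.99, 7.41 and 7.69 FPKM in mutants and 7.14, 8.16 and 5.55 FPKM in siblings. The libraries lay apart at 7 dpf, with mutants lower, and overlapped at 5 dpf. The log2 fold change at 7 dpf was −0.43 (standard error 0.14, interval −0.74 to −0.12, limma adjusted p = 0.11), with an adjusted p of 0.061 to 0.36 over the alternatives. At 5 dpf it was 0.15 (−0.16 to 0.46, adjusted p = 0.68). Gata6 had the most reads of the 9 factors in its deepest library, with 165 to 333 per library.

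Hhex (ENSDARG00000098231, chromosome 12, 47663419 to 47667745, plus strand) had 0.718, 3.77 and 1.80 FPKM in mutants and 1.57, 0.870 and 2.93 FPKM in siblings at 7 dpf. The 5 dpf values were 2.55, 3.55 and 3.25 FPKM in mutants and 1.22, 1.01 and 2.18 FPKM in siblings. All mutant libraries were higher at 5 dpf, while at 7 dpf the mutant libraries spanned the sibling ones. Its log2 fold change was 0.10 at 7 dpf (−0.82 to 1.02, limma adjusted p = 0.93) and 0.91 at 5 dpf (−0.01 to 1.83, adjusted p = 0.35), with a standard error of 0.42 that was the widest of the 8 factors. Its gene model is 531 bases long, and hhex had 6 to 33 reads per library, a counting error of 40.8% to 17.4%. The direction at 7 dpf turned without mutant replicate 2 of that age (−0.35) and without sibling replicate 2 (−0.22).

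Cdx1b (ENSDARG00000116139, chromosome 21, 43976075 to 43992027, minus strand) had 0.791, 0.799 and 0.558 FPKM in mutants and 1.55, 1.32 and 0.765 FPKM in siblings at 7 dpf. At the earlier age the values were 0.526, 0.619 and 0.576 FPKM in mutants and 1.11, 0.941 and 1.03 FPKM in siblings. The groups lay apart at 5 dpf, with mutants lower, and at 7 dpf sibling replicate 3 reached into the mutant range. The log2 fold change was −0.47 at 7 dpf (−0.90 to −0.04, limma adjusted p = 0.22) and −0.51 at 5 dpf (−0.94 to −0.07, adjusted p = 0.26). By in situ hybridization the paper described cdx1b in mutants as strongly lowered at 5 dpf and hardly detectable at 7 dpf. Staining of the gut and RNA of whole larvae are unlike measures. The model overlaps IK (ENSDARG00000004161, 43987153 to 44037106), a gene of the other strand, and the sources used here do not say whether strand was counted, so the 2 genes could share reads. IK had 740 to 1000 reads in mutant libraries against 425 to 784 in sibling libraries, with log2 fold changes of 0.38 at 7 dpf (limma adjusted p = 0.22) and 0.43 at 5 dpf (adjusted p = 0.23), opposite in sign to cdx1b. Their part in the cdx1b values was not tested.

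Mutant and sibling libraries did not overlap for 3 of 8 factors at 7 dpf (foxa1, foxa2 and gata6, all lower in mutants), against 25.5% of all genes tested. At 5 dpf they did not overlap for 3 of 8 (foxa2 and cdx1b lower, hhex higher), against 19.6% of all genes. Foxa2 was the factor common to both ages. Summed over the 9 factors, the level was 25.1 ± 3.1 FPKM in mutants and 29.5 ± 2.4 FPKM in siblings at 7 dpf, ranges that overlapped. At 5 dpf it was 28.5 ± 1.8 FPKM in mutants and 24.3 ± 1.1 FPKM in siblings (SD, n = 3 each), and the ranges did not overlap. The exocrine pancreas products, by comparison, summed to 291 to 2227 FPKM in mutants and 22840 to 28020 FPKM in siblings at 7 dpf.

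The mutant effect averaged over both ages, a comparison added after the data were seen, called 0 of 8 factors, against 7.69% of all genes. An unadjusted p under 0.05 was reached by 3 of 8 factors, against 5152 of 23648 genes. Cdx1b came nearest, with a log2 fold change of −0.49 (95% interval −0.79 to −0.18, limma adjusted p = 0.057). It was called in 3 of 24 alternatives: with library weights, with voom, and without sibling replicate 3 of 7 dpf (−0.59, adjusted p = 0.019). Foxa2 had −0.42 (−0.70 to −0.14, adjusted p = 0.073) and was called in 0 of 24. Gata5 had 0.34 (0.06 to 0.62, adjusted p = 0.15) and was called as higher under the TPM and total reads scalings, both of which raise the median of all genes as well. Foxa3 averaged 0.01 (−0.28 to 0.30). This average uses the same libraries as the comparisons at each age and adds no independent evidence.

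The difference between the ages asked whether a factor's mutant effect changed from 5 to 7 dpf. By limma 0 of 8 factors passed, against 0% of all genes. An unadjusted p under 0.05 was reached by 1 factor of 8, against 2455 of 23648 genes. That factor was gata6, whose effect at 7 dpf minus that at 5 dpf was −0.58 (95% interval −1.02 to −0.15, adjusted p = 0.34). The same difference was −0.51 for foxa1 (adjusted p = 0.49) and −0.81 for hhex (interval −2.11 to 0.49, adjusted p = 0.68).

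Between 5 and 7 dpf foxa1 and foxa2 rose in siblings and gata6 fell in mutants, at shares of the set near or below that of all genes. In siblings 2 of 8 factors rose, against 25.3% of all genes called in either direction. Foxa1 averaged 6.76 ± 1.23 FPKM at 7 dpf and 3.90 ± 0.43 FPKM at 5 dpf, with every 7 dpf library above every 5 dpf library, a log2 fold change of 0.71 (95% interval 0.35 to 1.08, limma adjusted p = 0.0091), and it was called in all 24 alternatives. Foxa2 averaged 2.17 ± 0.53 FPKM at 7 dpf and 1.18 ± 0.12 FPKM at 5 dpf, a log2 fold change of 0.65 (0.26 to 1.053, adjusted p = 0.021). The foxa2 call was lost without sibling replicate 2 or 3 of 5 dpf, without sibling replicate 1 or 3 of 7 dpf, and under 3 other settings (adjusted p of 0.054 to 0.091). Foxa3 had a log2 fold change of 0.47 (adjusted p = 0.089) and gata5 one of −0.38 (adjusted p = 0.15).

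In mutants 1 of 8 factors fell between 5 and 7 dpf, against 11.4% of all genes called in either direction. Gata6 averaged 4.75 ± 0.37 FPKM at 7 dpf and 7.70 ± 0.29 FPKM at 5 dpf, a log2 fold change of −0.64 (95% interval −0.95 to −0.34, limma adjusted p = 0.013). The adjusted p was 0.053 without mutant replicate 1 of 5 dpf, the 1 alternative of 24 in which it was lost. In siblings gata6 had −0.06 (−0.37 to 0.25, adjusted p = 0.80), which turned to 0.056 without sibling replicate 2 of 5 dpf, and the test of the difference between the genotypes is the one given above, which did not pass. Foxa2 in mutants had 0.57 (0.17 to 0.96, adjusted p = 0.068) and passed with library weights (0.64, adjusted p = 0.020), and foxa1 had 0.21 (−0.16 to 0.57, adjusted p = 0.49). These comparisons share the sibling and mutant libraries with those between genotypes.

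Ratios within a library compare 2 factors of a family without the scaling between libraries, and were chosen after the values were seen. Of 6 ratios at 2 ages, 12 tests in all, 1 ratio at each age had no overlap between mutants and siblings. For single genes the groups did not overlap for 25.5% of all genes tested at 7 dpf and 19.6% at 5 dpf. No such share was worked out for ratios, so the count is a description only. The FPKM ratio of gata6 to gata5 at 7 dpf was 1.42, 1.35 and 1.24 in mutants and 2.67, 2.02 and 2.69 in siblings, a difference of −0.87 in log2 (exact two-sided permutation p = 0.1, adjusted p = 0.6). Leaving out 1 library at a time gave −1.005 to −0.80. At 5 dpf the same ratio was 1.77, 1.35 and 1.79 in mutants and 1.63, 2.12 and 1.92 in siblings, a difference of −0.21 (exact p = 0.4). The ratio of foxa2 to foxa3 at 5 dpf was 0.162, 0.143 and 0.188 in mutants and 0.404, 0.243 and 0.212 in siblings, a difference of −0.75 (exact p = 0.1, adjusted p = 0.6), and at 7 dpf the difference was −0.45 (exact p = 0.4). With 3 libraries against 3 the exact test cannot go below 0.1.

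**Figure D4:**
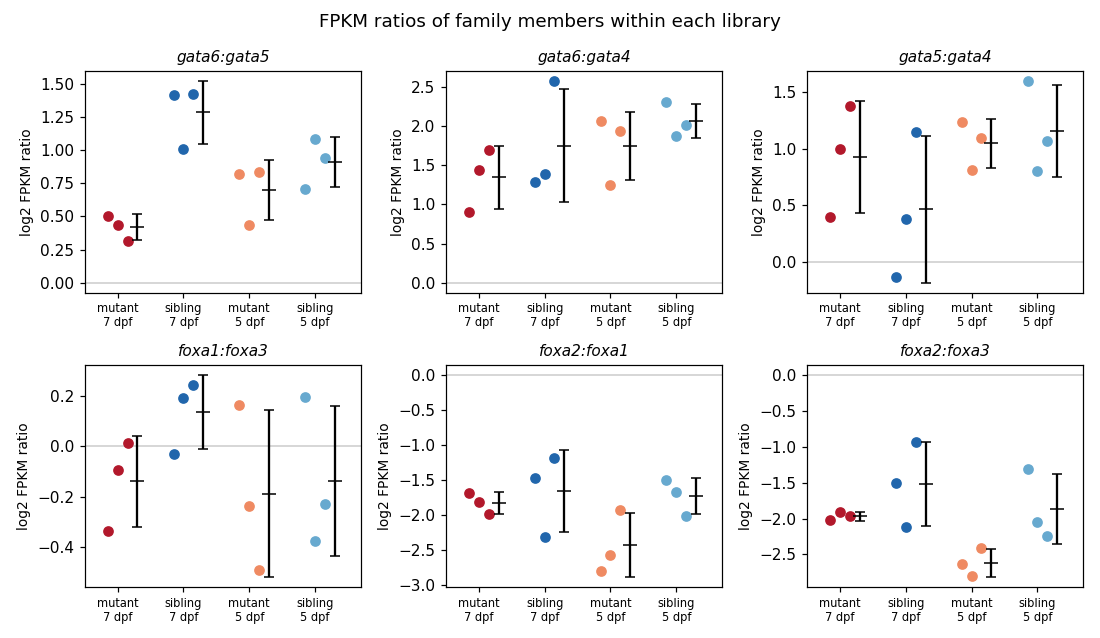
Log2 ratio of the FPKM of 2 factors of one family within a library, in mutants and siblings at 7 dpf and at 5 dpf. Each point is 1 library and each bar a group mean ± SD. Mutants and siblings lie apart for gata6 to gata5 at 7 dpf and for foxa2 to foxa3 at 5 dpf.

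Relatives of the factors in the Hnf4, GATA and Cdx families gave 1 call at 7 dpf and 0 at 5 dpf, against 5.05% and 2.82% of all genes. Of 9 paralogues 7 were tested, with a median log2 fold change of −0.27 at 7 dpf and −0.12 at 5 dpf. HNF4G, a paralogue of hnf4a expressed in the gut, had 0.819, 0.868 and 0.693 FPKM in mutants and 1.67, 1.79 and 1.43 FPKM in siblings at 7 dpf, with a fold change of −0.72 in log2 (limma adjusted p = 0.045). That call was kept in 5 of 25 alternatives and lost without any 1 of 11 of the 12 libraries. The paralogues of cdx1b that were tested, cdx1a and cdx4, were named with their values known. Both had 7 dpf mutant libraries entirely below the sibling ones, where 25.5% of all genes tested had no overlap in either direction. Values of cdx1a at 7 dpf were 0.802, 0.930 and 0.961 FPKM in mutants and 2.497, 1.28 and 1.73 FPKM in siblings. Cdx1a had a log2 fold change of −0.71 and cdx4 one of −0.80 at 7 dpf, and neither passed at either age. For the effect averaged over both ages, 3 of 7 paralogues were called lower (HNF4G −0.57, cdx1a −0.68 and cdx4 −0.65, limma adjusted p of 0.020, 0.033 and 0.029), against 7.69% of all genes called in either direction.

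Other transcription factors of the digestive organs, a list of 30 identifiers with 24 tested, had a median log2 fold change of −0.35 at 7 dpf and −0.30 at 5 dpf, the second of which was −0.19 without mutant replicate 1 of 5 dpf. At 7 dpf 3 of 24 fell, against 5.05% of all genes called in either direction. PTF1A and RBPJL, partners in the complex that drives acinar enzyme genes, had −1.75 and −1.25 (both limma adjusted p = 0.018), and PROX1, a homeodomain factor of liver and lymphatic vessels, had −0.64 (adjusted p = 0.012). PTF1A had 0.478, 0.835 and 1.103 FPKM in mutants and 1.62, 5.69 and 5.55 FPKM in siblings. At 5 dpf 2 fell and 1 rose, against 2.82% of all genes called in either direction. NEUROD1, a factor of endocrine and nerve cells, had 1.73, 4.10 and 3.002 FPKM in mutants and 10.8, 13.9 and 15.8 FPKM in siblings (−2.07, adjusted p = 0.0030), and BHLHA15, a factor of secretory acinar cells, had −1.55 (adjusted p = 0.018). CEBPA, a factor of hepatocytes and myeloid cells, was higher, with 0.83 (adjusted p = 0.043). Of these calls NEUROD1 was kept in all 25 alternatives. PTF1A was lost without mutant replicate 1 or 2 or sibling replicate 2 or 3 of 7 dpf, with only the 2 groups compared (adjusted p = 0.078) and with voom (0.055). RBPJL was lost without mutant replicate 2 or sibling replicate 2 or 3 of that age and with only the 2 groups compared (0.055), and PROX1 without sibling replicate 2 and with TPM (0.12) or total reads scaling (0.080). BHLHA15 was lost without mutant replicate 1 or 3 of 5 dpf and with only the 2 groups compared (0.067), and CEBPA without any 1 of 9 of the 12 libraries, without a filter (0.065) and with only the 2 groups compared (0.093). The number called ranged over the alternatives from 0 to 7 at 7 dpf and from 1 to 5 at 5 dpf. For the averaged effect 9 of 24 were called lower and 1 higher (ELF3), against the same 7.69% of all genes.

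Tissues outside the digestive organs in which the factors also act were described by fixed markers. Heart markers, 11 identifiers all tested, summed to 63.1 to 74.2 FPKM in mutants and 54.0 to 58.6 FPKM in siblings at 7 dpf, and 74.9 to 90.6 FPKM in mutants and 56.2 to 71.8 FPKM in siblings at 5 dpf. The list median in log2 fold change was 0.11 at 7 dpf, with 0 of 11 called, and 0.41 at 5 dpf, with 1 of 11 called (TNNT2, ENSDARG00000020610, higher). That call was lost without any 1 of 11 of the 12 libraries. The summed heart ranges of mutants and siblings did not overlap, and those of mutants were higher at both ages. Endothelial markers, 8 identifiers all tested with 0 called at either age, summed to 32.9 to 41.1 FPKM in mutants and 28.6 to 30.9 FPKM in siblings at 7 dpf, and 30.02 to 35.0 FPKM in mutants and 28.2 to 31.4 FPKM in siblings at 5 dpf. Floor plate markers, 6 of 10 tested with 0 called, summed to 13.8 to 15.1 FPKM in mutants and 12.6 to 15.6 FPKM in siblings at 7 dpf, and 16.6 to 17.3 FPKM in mutants and 14.8 to 17.9 FPKM in siblings at 5 dpf. Thyroid follicle markers, 3 of 4 tested with 0 called, summed to 3.02 to 5.75 FPKM in mutants and 2.52 to 3.60 FPKM in siblings at 7 dpf, and 2.204 to 5.00 FPKM in mutants and 1.94 to 2.52 FPKM in siblings at 5 dpf. None of these markers was at 0 in all 3 libraries of a group. Their part in the values of the factors was not tested.

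The genes whose profile over the 12 libraries lay nearest to each factor were found by the root mean square difference of the centred log2(FPKM + 0.5). For gata6 they were plscr3b (0.10) and FRRS1 (0.12), for foxa1 ptprc (0.11) and LOXHD1 (0.14), and for gata5 ABI1 (0.11) and HS6ST2 (0.12). For cdx1b they were st3gal7 (0.13) and igsf5a (0.14), for foxa3 UBE2O and ZMIZ1 (both 0.13), and for foxa2 c3a.6 (0.13) and epn3a (0.17). Gata4 had DNAJC25 (0.19) and FOXO1 (0.20), and hhex had no near match, with si:ch211-233f10.6 at 0.38 and prelid1b at 0.39. No other member of the set was among the 2 nearest genes of any factor. The points share libraries and depth, and the likeness is a description over 12 libraries.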

How the data were processed

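RNA was taken from whole larvae with Trizol and sequenced in 12 libraries, 3 per genotype and age, each a pool of 30 larvae. The pools were treated as separate samples, so p-values measure only the spread between pools. The authors mapped the reads to GRCz11 (HISAT2 2.0.5 in the submitters' processing notes) and deposited 1 FPKM value per gene and library. Neither the counter, its strand setting nor the annotation release is stated in the sources used here. Low FPKM values were whole multiples of 1 read (100% within 0.01 of a read below 10000 reads), which gave back reads per gene. The library term of the FPKM followed the median of ratios between libraries.

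The 23648 genes reaching 0.5 FPKM in 3 or more of the 12 libraries were fitted by limma 3.58.1 (R 4.3.3) after a log2 transform with 0.5 FPKM added. The 4 group means shared 1 fit (8 residual degrees of freedom), and p-values were adjusted over all genes tested. Ratios within libraries used exact permutation tests in scipy 1.17.1. The limma steps were tested on simulated counts, for mutants against siblings at 5 dpf only. That check required recovery of log2 changes of 4 and few calls among unchanged genes. It gives no measure of power for changes as small as those of the factors. The members and the lists were chosen with earlier results of these data known. Symbols follow the gene name table, matched ignoring case and, if absent, without a final a or b, and capitals are human-style names. The genes named by rule were the members, up to 4 called genes per list and age by size of change, the 2 nearest profiles per member and ercc2. Other genes, such as cdx1a, cdx4, ELF3, IK, alas2 and those next to hnf4a, fell outside this rule. They were named with their values known. The alternatives changed the pseudocount (0.1 or 1 FPKM), dropped the filter or raised it to 1 FPKM, and used other scalings, the 2 groups alone, library weights, replicate blocks and each library left out. Total reads scaling, voom on recovered reads, the fit without the 2 libraries of lowest weight, the averaged effect and the ratios were added after seeing the data. At 5 dpf mutant and sibling libraries of the same number deviated together (correlation 0.272, 0.129 and 0.217, against −0.188 to −0.027 for different numbers), and at 7 dpf they did not (0.054, 0.087 and −0.023). Deviations from a group mean cancel out within the group, so values for same and different numbers are not independent. Any pairing by number rests on these values alone. The fit reported has no pairing term, and the replicate blocks are alternatives to it. Sequences of the members are not shown here.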

Additional observations from a re-analysis of the deposited data

How the results depend on the processing

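The count of called factors in mutants against siblings was 0 at both ages under all 25 alternatives, and 0 for the difference of effects under 24. Several of the 25 leave the fold changes as reported or nearly so. TPM and total reads scaling brought the median of all genes to 0.20 and 0.16 (log2) at 7 dpf, against 0.01 as reported, and to 0.20 and 0.12 at 5 dpf, against 0.02. Both scalings multiply each library by 1 number and so move all genes by a similar amount. Values relative to that median thus largely repeat the reported fit (at 7 dpf foxa3 −0.14 and −0.12, gata4 −0.08 and −0.07). They are no check of the direction. Not set against the median, foxa3 and gata4 turned at 7 dpf to 0.064 and 0.12 with TPM and to 0.035 and 0.085 with total reads. Without the 2 libraries of lowest weight they turned to 0.010 and 0.073. Leaving out 1 library at a time gave −0.24 to 0.010 for foxa3, −0.39 to 0.10 for gata4 and −0.35 to 0.55 for hhex at 7 dpf, and −0.012 to 0.28 for foxa3 at 5 dpf. From 5 to 7 dpf in siblings, gata6 turned to 0.020 with library weights and 0.056 without the 2 libraries, and hhex to −0.089 and −0.0079. The same omission of single libraries gave −0.20 to 0.056 for gata6, −0.18 to 0.48 for hhex and −0.0078 to 0.34 for cdx1b. None of the values that turned was called, and the cause was not tested.

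In siblings from 5 to 7 dpf the count of called factors was 1 with TPM, with only the 2 groups and with total reads, and 1 to 2 without single libraries. In mutants it was 2 with library weights and 0 to 1 without single libraries. For the averaged effect it was 1 with TPM, total reads, library weights and voom, and 0 to 1 without single libraries. The median of the factors at 5 dpf was 0.35 with TPM, 0.20 with library weights, 0.27 with total reads, 0.24 without the 2 libraries and 0.14 to 0.24 without single libraries. At 7 dpf it was −0.067 with TPM, −0.092 with total reads and −0.41 to −0.15 without single libraries. The enterocyte median was −2.65 at 7 dpf and −2.16 at 5 dpf with a pseudocount of 0.1, −1.50 and −1.36 with 1, −2.66 and −2.35 with voom, and −2.10 to −1.78 at 7 dpf without single libraries. At 7 dpf the median of the other digestive organ factors was −0.14 without a filter, −0.15 with TPM and −0.17 with total reads, and the hepatocyte median was −1.51 with TPM and −1.53 with total reads. At 5 dpf, single libraries left out, the hepatocyte median was −0.68 to −0.33 and that of the other digestive organ factors −0.42 to −0.19.

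Over all genes the number called ranged from 719 to 2338 at 7 dpf (1194 as reported), 314 to 763 at 5 dpf (666), 1394 to 4192 in mutants between the ages (2700), and 1171 to 3606 for the averaged effect (1818). With the replicate block the count of called factors was 0 at 7 dpf, 0 at 5 dpf, 2 in siblings and 1 in mutants between the ages, with the block within each age it was 0 at both ages, and the pairing changed no call of a factor. Few reads limit hnf4a (0 to 6 reads) most and hhex (6 to 33 reads) next, and why hnf4a had so few was not tested. Mixed sibling genotypes, whole larvae and the unstated strand setting are further limits.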

Other observations

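Hormone genes of gut endocrine cells and goblet cell markers, made a list of 7 identifiers, all tested, in which the calls were hormone genes. At 7 dpf 3 rose (GCG, gcga and PYY) and 0 fell, with a list median of 0.95 in log2 fold change, and at 5 dpf 2 rose (GCG and gcga) and 0 fell, with a median of 0.62 and 2 of 7 below 0 (lowest −0.44). No goblet cell marker was called at either age. Those matched were AGR2 and muc5.1 only, and muc2.1 had no match. By staining, the paper counted fewer goblet cells in mutants at 5 dpf. The GCG call at 5 dpf was lost with only the 2 groups compared (limma adjusted p = 0.055). GCG (ENSDARG00000040907), a proglucagon gene, had 15.7, 10.5 and 8.55 FPKM in mutants and 0.897, 1.17 and 0.656 FPKM in siblings at 7 dpf, with a fold change of 3.08 in log2 (limma adjusted p = 0.00036). The other proglucagon gene, gcga, which pancreatic alpha cells also express, had 8.17, 6.78 and 11.1 FPKM in mutants and 1.11, 1.99 and 1.44 FPKM in siblings (2.18, adjusted p = 9.7e-05). The paper used gcga as an islet marker and reported similar staining in mutants and siblings by in situ hybridization. Islet staining and RNA of whole larvae are unlike measures, and the cells in which the gcga RNA rose were not tested. PYY, a peptide hormone of the gut, had 12.7, 10.01 and 10.6 FPKM in mutants and 4.49, 3.48 and 1.94 FPKM in siblings at 7 dpf (1.66, adjusted p = 0.010), and its groups overlapped at 5 dpf.

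Among markers of the pronephros, 7 of 12 tested, 1 fell at each age, against 5.05% of all genes called at 7 dpf and 2.82% at 5 dpf. That gene, atp1a1a.4, a sodium pump subunit of transporting epithelia, had 23.1, 17.8 and 21.5 FPKM in mutants and 77.5, 65.0 and 59.12 FPKM in siblings at 7 dpf, with log2 fold changes of −1.67 at 7 dpf and −1.29 at 5 dpf. The median of the list was 0.14 at 7 dpf and 0.02 at 5 dpf. Among erythroid markers, 5 of 8 tested, 1 fell at each age, against the same shares of all genes. It was the anion exchanger gene SLC4A1 (ENSDARG00000012881), with 1.43, 1.82 and 1.42 FPKM in mutants and 3.41, 4.65 and 3.50 FPKM in siblings at 7 dpf, and log2 fold changes of −1.08 at 7 dpf and −1.60 at 5 dpf. The call at 7 dpf was lost without sibling replicate 2 of that age (adjusted p = 0.068) and when both libraries of lowest weight were left out (0.053). The erythroid markers summed to 86.9 to 104 FPKM in mutants and 101 to 158 FPKM in siblings at 7 dpf. At 5 dpf they summed to 228 to 380 FPKM in mutants and 264 to 560 FPKM in siblings, and the ranges overlapped at both ages. Alas2 was at 0 in 3 of the 4 groups, siblings of 7 dpf among them. The globin symbols hbbe1.1, hbbe2 and hbba1 had no match. By in situ hybridization the paper described hbae1, hbae3 and hbbe1 as nearly absent in mutants at both ages.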
